A study of Ctenopharyngodon idella with 15 samples.

Results

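In the gills of grass carp kept in saline water for 30 days, 182 genes had a higher FPKM in each of the 12 salinity-treated fish than in any of the 3 untreated control fish. FPKM counts sequenced fragments relative to transcript length and library size. The 182 were chosen by this separation among the 20971 ids that were above 0 in all 15 fish and had a mean FPKM of at least 1, out of 40116 ids in all. Over all such ids, 191 (0.911%) were higher in every treated fish, and 9 of these that the study names in its figures were left out. The remaining ids were ranked by the mean log2(FPKM + 1) of the treated fish minus that of the control fish, and the upper limit of 200 was not reached. The difference between treated and control fish is therefore the rule itself and is described here without a test. Only differences among the 4 treated groups were tested.

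The control fish (con) were kept without added salt. The other groups had been kept at 3‰ or 6‰ salinity, and at each salinity fish with symptoms and fish without them were sampled apart. Each of the 5 groups held 3 fish, and each fish gave its own gill library. All fish were uninfected Ctenopharyngodon idella juveniles of one age, and sea salt was used for both salinities, which the labels write as 3% and 6%. Symptomatic fish had visible damage such as lost scales and ulcerated fins and are labelled as injured. Nothing in the sources used here says which tank a fish came from, so the p-values measure the spread between these fish only. Per fish, 28848 to 30345 ids had an FPKM above 0 and the values summed to 759044 to 852270, and the number of reads behind them is unknown. The controls were a single group of 3 fish, and no untreated fish with symptoms is among these samples.

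The gill of a freshwater fish takes up salt through ionocytes, exchanges gases across thin lamellae, and is covered by mucus and by a barrier of epithelial and immune cells. When the water becomes saltier, the gradients for salt and water across this epithelium shrink, and ion transport, junctions, metabolism and stress hormone signals are known to adjust. The deposited files do not pair the ids with gene names, and 0 of the 40116 ids matched the gene table used for reference. The members are therefore given by id, which for most of them is a scaffold with a start and an end position. No function is assigned to any member. A further 9 ids separated in the same way and have names because the study's figures show them, so they are no sample of the members. They were urea transporter 2-like, which carries urea across membranes, a homolog of cornifelin, known from the cornified layer of mammalian skin, C-type lysozyme, which cleaves bacterial cell walls, DNA damage-inducible transcript 4 protein, a stress-induced inhibitor of mTOR in mammals, and the tyrosine kinase Fes/Fps. The others were the interferon-induced very large GTPase 1, a GVINP1-like gene, and hypoxia-inducible factor-2 alpha and -4 alpha, transcription factors of the response to low oxygen. They would have stood between position 2 and position 167 of the 191.

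The mean difference between treated and control fish was 0.58 at the median member and reached from 0.17 to 3.26 on the log2(FPKM + 1) scale. Over the 20971 eligible ids the median was 0.06. A mean difference of at least 1.5-fold was found in 90 of the 182 members, of at least 2-fold in 29, and of at least 2 on the log2 scale in 5. The added 1 understates the fold of ids with low values, and 68 members had a mean FPKM under 5, while 11 had a mean of at least 50. The median member lay at a mean FPKM of 8.16, below the 10.7 of all eligible ids. The members were mostly genes of low to moderate level that differed by less than 2-fold.

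**Figure D1:**
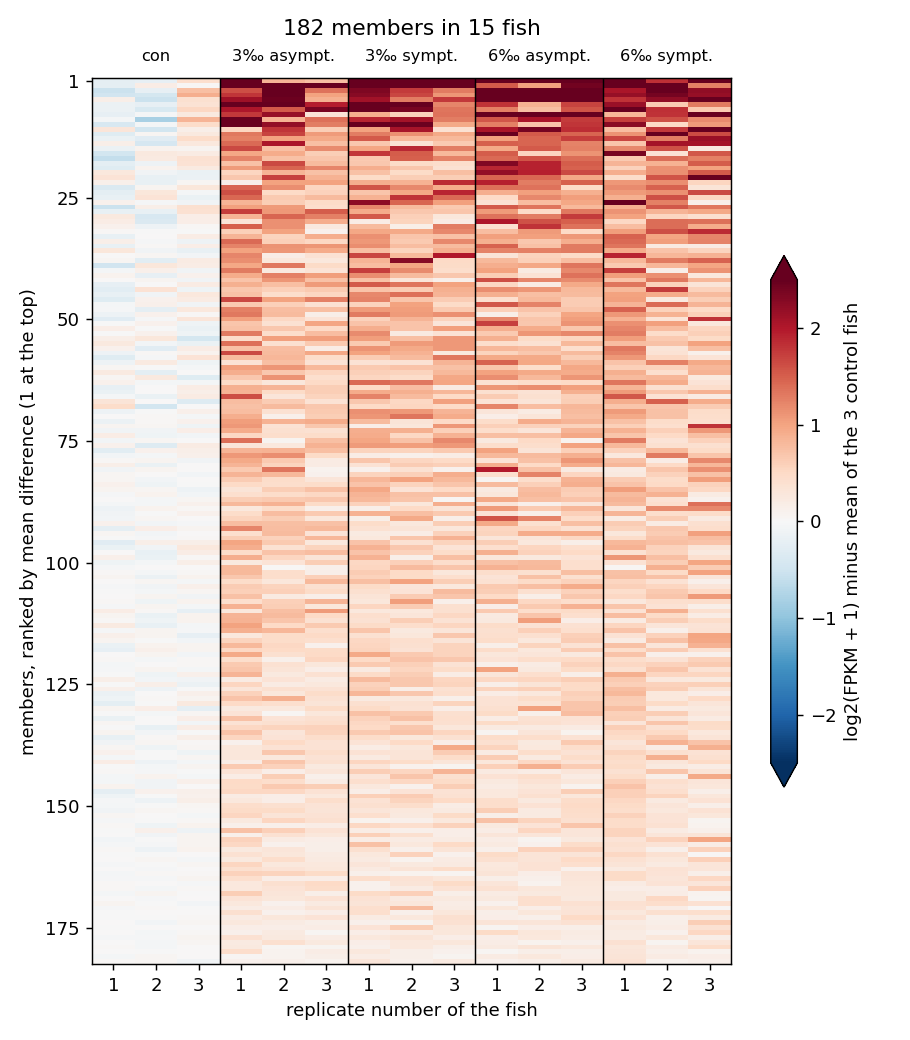
Each row is one of the 182 members in rank order and each column one fish. Colour gives log2(FPKM + 1) minus the mean of the 3 control fish, cut at 2.5 in both directions. The treated columns are above 0 in all rows by construction. The differences are large in the upper rows and small in the lower rows, where the median over all members was 0.58.

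The gap between the groups was narrow in most members. The lowest treated fish stood 1.07 times above the highest control fish at the median, at least 1.1 times above it in 62 members, and at least 1.5 times above it in 4. These were CI01158834_00000176_00000779 (2.21 times), CI01000055_04023182_04033823 (1.79 times), CI01000340_07451476_07454866 (1.67 times) and newGene_8898 (1.61 times), chosen after their values were seen. Just inside the rule lay CI01000021_05488457_05506440, with 4.98 FPKM in both the lowest treated and the highest control fish (ratio 1.0004), and CI01000012_00863269_00864644, with 63.2 in both (ratio 1.0008). Just outside it lay CI01000029_08019292_08036434 (ratio 0.999) and CI01000140_00485225_00489206 (ratio 0.998). Membership at this edge is decided by differences far below the spread between fish.

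**Figure D2:**
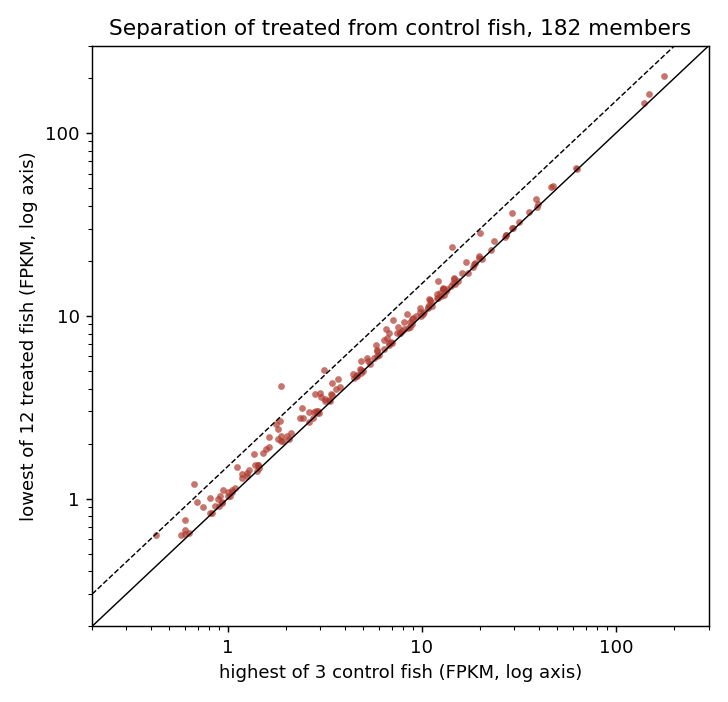
Each point is a member, with the highest of the 3 control fish on the x axis and the lowest of the 12 treated fish on the y axis, both in FPKM on log axes. The solid line marks equal values and the dashed line a ratio of 1.5. Points hug the solid line, and 4 lie on or above the dashed one.

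Which fish set the limit was uneven. The highest control fish was control replicate 3 in 89 members, replicate 1 in 47 and replicate 2 in 46. The lowest treated fish was the 6‰-treated symptomatic replicate 3 in 33 members and the 6‰-treated symptomatic replicate 1 in 4. A further 407 ids, not counting those the study names, had 11 of the 12 treated fish above all controls, and in 123 of them the exception was the 6‰-treated symptomatic replicate 3. In 919 ids all treated fish were above 2 of the 3 control fish, and control replicate 3 was the high one in 509. Without control replicate 3 the rule gave 692 ids, without replicate 1 444, without replicate 2 334, and without the 6‰-treated symptomatic replicate 3 it gave 307. Leaving out any other fish gave 188 to 239. Leaving out a fish also shifts the filter on mean FPKM, but all 182 members still met the rule each time. These counts therefore say how far single fish hold ids out of the list. They were taken without the limit of 200. The opposite list grew too, counted here with the ids the study names. Without control replicate 3, ids lower in every treated fish rose from 83 to 418, and ids higher from 191 to 713. Without the 6‰-treated symptomatic replicate 3 the counts were 144 lower and 316 higher. Over eligible ids, the median difference from the control mean was 0.04 in control replicate 3, -0.03 in replicate 1 and -0.006 in replicate 2. In the 6‰-treated symptomatic replicate 3 it was -0.05, the lowest of all fish. How far such offsets over all ids set the counts was not tested.

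**Figure D3:**
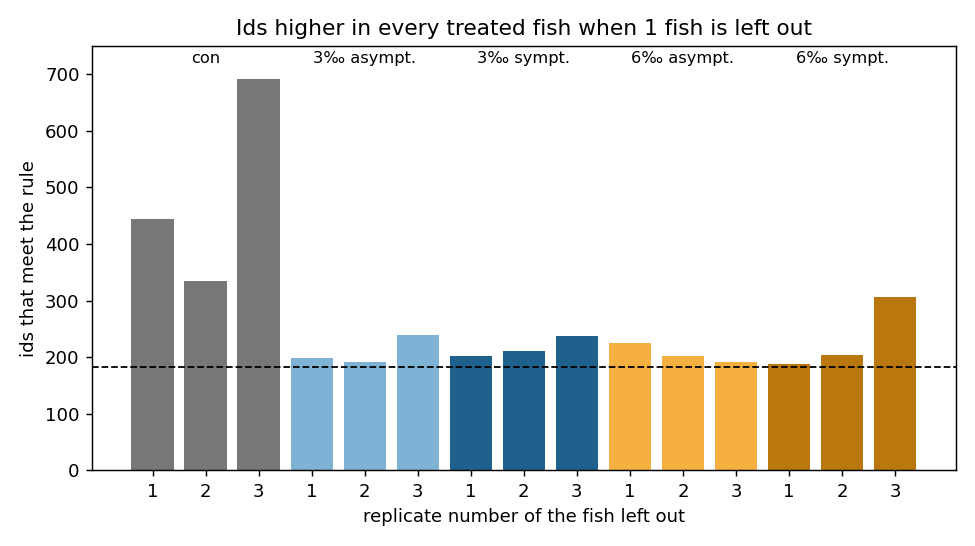
Bars give the number of ids that met the rule when the fish on the x axis was left out, coloured by group. The dashed line marks the 182 members found with all fish. The bar for control replicate 3 reaches 692.

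The scaling of the libraries also mattered. FPKM values of the typical gene were slightly higher in treated than in control fish, with a median difference of 0.06 over the eligible ids. With the FPKM values as deposited, 191 ids were higher and 83 (0.396%) lower in every treated fish, so 69.7% of the separated ids were higher. After median-ratio scaling, which sets the typical gene equal between fish, the counts were 134 and 146 (47.9% higher), and after quantile normalization 114 and 131 (46.5% higher). Of the 182 members, 120 still met the rule after median-ratio scaling, 92 after quantile normalization and 89 after both. Among the 20 members ranked highest the counts were 19, 18 and 18, and among the 82 ranked 101 and lower they were 43, 28 and 26. All 182 kept a mean difference above 0 in both, with a median of 0.53 and 0.49. The members were chosen for this difference, which was at least 0.17 before scaling, so its sign had little room to change. The split into higher and lower ids thus moved with the scaling, and most of the 20 highest members did not. Of the members named below for a low p between treated groups, those ranked 30, 32, 67, 88 and 124 met the rule after neither scaling. Those ranked 37, 46 and 78 met it only after median-ratio scaling.

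The member ranked 1 was CI01000376_00183041_00194776, on scaffold CI01000376 from position 183041 to 194776. Its FPKM was 3.80, 3.89 and 6.54 in con, 90.5, 9.08 and 8.45 in the 3‰ asymptomatic group, 37.4, 56.8 and 53.1 in the 3‰ symptomatic group, 244, 120 and 122 in the 6‰ asymptomatic group, and 41.8, 18.99 and 177 in the 6‰ symptomatic group. The mean difference was 3.26. All 6‰-treated asymptomatic fish were above 100 FPKM, whereas replicates 2 and 3 of the 3‰-treated asymptomatic fish came close to the controls and replicate 1 did not.

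CI01158834_00000176_00000779, ranked 2, lies on a short scaffold and showed the opposite order of salinities. Its FPKM was 1.18, 1.88 and 1.57 in con, 16.2, 16.9 and 37.9 in the 3‰ asymptomatic group, 59.4, 60.1 and 23.1 in the 3‰ symptomatic group, 6.35, 4.15 and 12.4 in the 6‰ asymptomatic group, and 37.3, 21.1 and 5.04 in the 6‰ symptomatic group. The mean difference was 2.94. All 6 fish at 3‰ were above the 6‰ asymptomatic group, and the 6‰ symptomatic group overlapped both.

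The ids ranked 3 and 4, newGene_8898 and newGene_8896, carry close numbers, but the files give no position for newGene ids. The FPKM of newGene_8898 was 0.690, 1.12 and 3.12 in con, 6.52, 16.9 and 5.27 in the 3‰ asymptomatic group, 11.3, 7.23 and 5.03 in the 3‰ symptomatic group, 64.02, 36.5 and 31.5 in the 6‰ asymptomatic group, and 9.13, 14.05 and 10.4 in the 6‰ symptomatic group. For newGene_8896 the values were 2.69, 2.82 and 8.72 in con, 16.7, 38.8 and 9.31 in the 3‰ asymptomatic group, 23.97, 15.4 and 10.1 in the 3‰ symptomatic group, 122, 77.0 and 58.3 in the 6‰ asymptomatic group, and 22.4, 26.1 and 22.2 in the 6‰ symptomatic group. The fish ranked nearly alike in both, with the 6‰-treated asymptomatic fish on top without overlap and control replicate 3 the highest control. If both ids come from 1 transcribed region, they are not separate evidence, and that was not tested.

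CI01000344_03184366_03185464, ranked 5, was at 16.6, 9.98 and 20.04 in con, 68.2, 86.1 and 28.5 in the 3‰ asymptomatic group, 66.9, 37.8 and 53.1 in the 3‰ symptomatic group, 330, 242 and 113 in the 6‰ asymptomatic group, and 54.5, 73.3 and 202 in the 6‰ symptomatic group. It was again highest in 6‰-treated asymptomatic fish, with the 6‰-treated symptomatic replicate 3 among them. The 5 leading members thus covered both orders of the treated groups, although all separated from the controls.

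**Figure D4:**
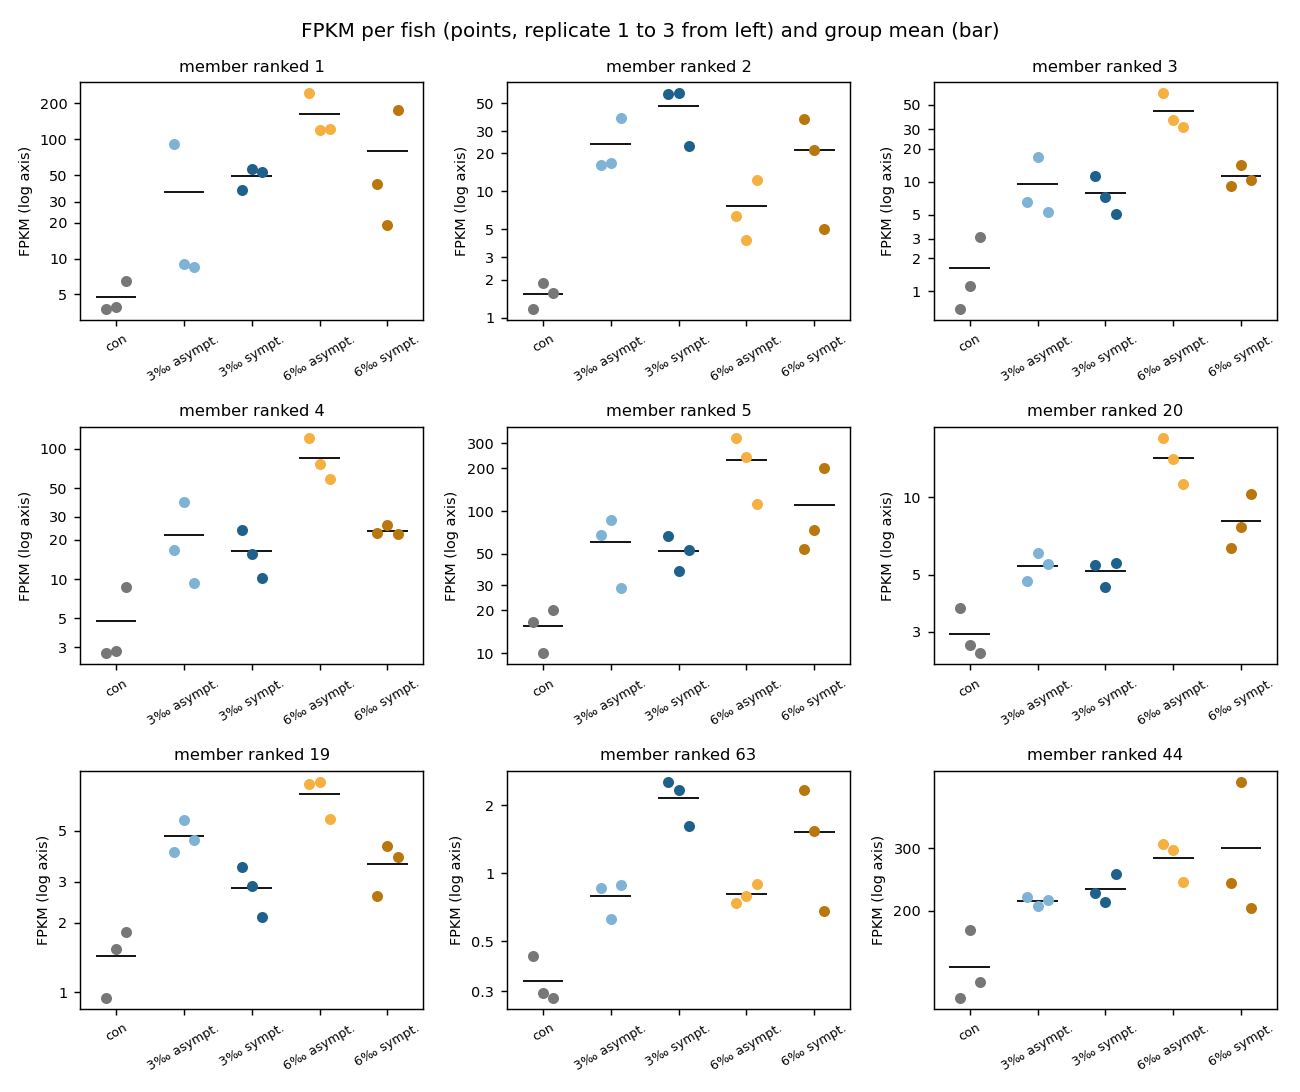
FPKM per fish on log axes for 9 members, named by rank (1 CI01000376_00183041_00194776, 2 CI01158834_00000176_00000779, 3 newGene_8898, 4 newGene_8896, 5 CI01000344_03184366_03185464, 20 CI01000027_09844761_09853770, 19 CI01000033_01103460_01104059, 63 CI01000029_07503905_07506541, 44 CI01000319_04751528_04753425). Points are fish, bars are group means. Members 1, 3, 4, 5, 19 and 20 have their highest mean in 6‰-treated asymptomatic fish, and members 2 and 63 in the 3‰ symptomatic group.

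The members of highest level differed much less. CI01000319_04751528_04753425, ranked 44, was at 114, 177 and 126 FPKM in the control fish, 219, 206 and 214 in the 3‰ asymptomatic group, 225, 212 and 254 in the 3‰ symptomatic group, 308.6, 295 and 240 in the 6‰ asymptomatic group, and 239, 459 and 204 in the 6‰ symptomatic group. CI01000068_00816340_00821508, ranked 136, was at 118 to 149 in the control fish and 165 to 212 in the treated fish. The smallest spread within controls among these was that of newGene_48, ranked 175, at 138, 140 and 139 in the control fish and 146 to 213 in the treated fish. Its mean difference was 0.25, and it did not meet the rule after median-ratio scaling and met it after quantile normalization.

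Of the 182, 165 carry a locus, on 101 scaffolds, of which 32 held at least 2 members and none held more than 6. Another member within 20 kb was found for 4 of the 165 (2.42%), beside 280 of 18376 other eligible ids with a locus (1.52%) that had a member this near. The genome build behind these positions is not stated in the labels or the paper. The 4 formed 2 pairs and no run of 3. In the first, CI01000319_04741909_04748409 (rank 15) lies 3119 bases from CI01000319_04751528_04753425, described above. Its FPKM was 8.15, 9.83 and 9.63 in con, 31.0, 16.1 and 22.0 in the 3‰ asymptomatic group, 19.2, 36.6 and 23.6 in the 3‰ symptomatic group, 18.7, 28.4 and 23.3 in the 6‰ asymptomatic group, and 22.4, 29.8 and 11 in the 6‰ symptomatic group. Replicate 2 was the highest of its group for both neighbours in con and in the 6‰ symptomatic group, and replicate 1 in the 3‰ asymptomatic group, while the other groups were led by different fish.

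In the second pair CI01000001_11798501_11800359 (rank 32) and CI01000001_11802690_11807444 (rank 101) lie 2331 bases apart. The first was at 19.6, 18.93 and 19.005 in con, 29.4, 39.4 and 20.8 in the 3‰ asymptomatic group, 38.6, 38.1 and 45.7 in the 3‰ symptomatic group, 33.6, 41.3 and 27.6 in the 6‰ asymptomatic group, and 40.7, 60.6 and 72.1 in the 6‰ symptomatic group. The second was at 4.49 to 4.64 in the control fish and 4.69 to 9.29 in the treated fish. Neither met the rule after median-ratio scaling or quantile normalization. Of the 165, 1 member (0.606%) lay within 20 kb of an id that the study names. Among the other eligible ids with a locus that the study does not name, 298 of 18163 (1.64%) did. The 1 member was CI01000000_05690714_05699205 (rank 181), at 15857 bases from HRAS-like suppressor 3. It was at 17.1 to 18.3 FPKM in the control fish and 18.4 to 22.5 in the treated fish, and it did not meet the rule after either scaling. The share of newGene ids was 9.34% among the members and 11.6% among the eligible ids, and the median locus span was 6360 and 6160 bases.

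Next, the treated groups were compared with each other, on log2(FPKM + 1) in 1 limma fit over all 5 groups and 24647 ids with a mean FPKM of at least 0.5. The threshold was a fold of at least 1.5 and an unadjusted p below 0.05, and Benjamini-Hochberg adjusted p-values over all 24647 ids are given beside it. Folds between treated groups are taken on this scale, with the added 1. The rule did not use the order of the treated groups. It does bar any treated fish from falling to the control level, which limits how far a member can differ between them. The fit also takes part of its spread from the control fish, and the rule favours ids whose control fish are alike. Their SD on the log2 scale was 0.12 at the median member and 0.25 at the median eligible id. Member p-values can therefore be too low, and member shares too high beside those of all ids. Counts from the 12 treated fish alone are given at the end. In the limma fit 0 members passed with an adjusted p below 0.05 in each of the 7 comparisons. At an unadjusted p below 0.05 of any size the member counts were 13 to 33 of 182. With symptoms 33 did so, beside 19.2% of all tested ids, and between the salinities 23, beside 9.81%. At 3‰ and 6‰ symptoms gave 21 and 15, beside 11.9% and 10.8%. Asymptomatic and symptomatic fish gave 25 and 13 between the salinities, beside 8.55% and 4.73%, and the interaction gave 14, beside 3.85%. Of all tested ids, 0.0122% passed with the adjusted p between the salinities, 0.073% with symptoms, 0.0162% between the salinities in asymptomatic fish, 0.00406% in symptomatic fish and 0% in each of the other 3. Every difference below is therefore one that did not survive adjustment.

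At the median over the members, the treated groups differed from the controls by similar amounts. The rule sets every treated fish above the controls, so these differences are a description. The median difference from the controls was 0.57 in both 3‰ groups, 0.55 in the 6‰ asymptomatic and 0.63 in the 6‰ symptomatic group. The 3‰ asymptomatic group had the highest mean in 39 members, the 3‰ symptomatic group in 52, the 6‰ asymptomatic group in 46 and the 6‰ symptomatic group in 45. Within single fish the median over the members ran from 0.46 to 0.69 above the control mean, and all eligible ids ran from -0.05 to 0.12. No treated group had the highest mean in most members, although the 6‰ asymptomatic group had it in those ranked 1, 3, 4 and 5.

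In 6‰-treated against 3‰-treated fish, averaged over fish with and without symptoms, 11 of the 182 members (6.04%) passed the threshold, beside 3.64% of all tested ids. Of these 9 were higher at 6‰ (4.95%, beside 1.94% of all ids) and 2 were lower (1.1%, beside 1.69%). Among them 10 were within the 20 members ranked highest, and 1 was ranked lower. The rank is the difference from the controls, and the rule keeps every treated fish above them. Members of low rank thus had little room for a fold of at least 1.5 between treated groups, so this split follows in part from the ranking. The median over all members was 0.01, and over all tested ids it was 0.00. The 9 higher ones included the members ranked 1, 3, 4 and 5.

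CI01000027_09844761_09853770 (rank 20) had the lowest p of the members. Its FPKM was 3.72, 2.68 and 2.48 in con, 4.72, 6.09 and 5.50 in the 3‰ asymptomatic group, 5.48, 4.50 and 5.56 in the 3‰ symptomatic group, 17.1, 14.1 and 11.3 in the 6‰ asymptomatic group, and 6.36, 7.66 and 10.4 in the 6‰ symptomatic group. All 6 fish at 6‰ were above all 6 fish at 3‰, which held for 1 of the 182 members (0.549%) and for 0.129% of the eligible ids. The difference was 0.88 (SE 0.14, adjusted p = 0.089), and the unadjusted threshold was passed without any single fish. newGene_8898 was higher at 6‰ by 1.35 (SE 0.31, adjusted p = 0.21).

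The 2 members that were lower at 6‰ were CI01158834_00000176_00000779, by -1.45 (SE 0.43, adjusted p = 0.30), and CI01038979_00000417_00002364 (rank 6), by -1.13 (SE 0.38, adjusted p = 0.36). The latter was at 0.859, 0.769 and 1.63 FPKM in the control fish, 18.8, 10.9 and 6.99 in the 3‰ asymptomatic group, 14.9, 18.8 and 3.78 in the 3‰ symptomatic group, 6.22, 2.76 and 5.597 in the 6‰ asymptomatic group, and 8.12, 2.18 and 4.06 in the 6‰ symptomatic group. Its 3‰-treated and 6‰-treated fish overlapped in the symptomatic groups.

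**Figure D5:**
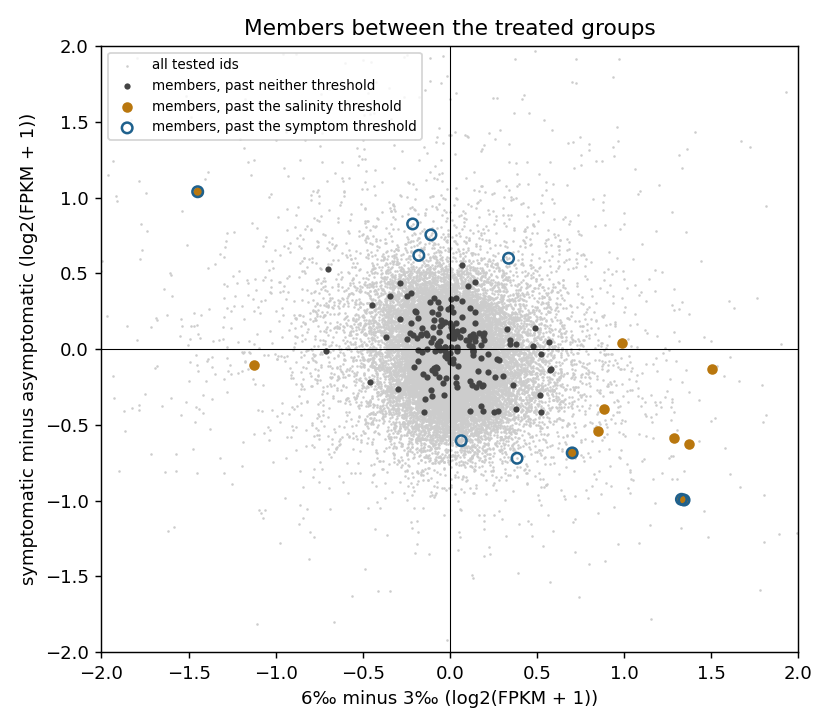
Each point is an id, with the difference of 6‰-treated minus 3‰-treated fish on the x axis and of symptomatic minus asymptomatic fish on the y axis, both on the log2(FPKM + 1) scale and drawn to 2 (66 of the 24647 ids lie outside). Grey points are all tested ids and dark points the members. Filled brown points are the 11 members past the salinity threshold and open blue circles the 10 past the symptom threshold.

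In asymptomatic fish alone the salinities differed past the threshold in 14 members, 7.69% beside 5.22% of all ids, with 12 higher at 6‰ (6.59%, beside 2.93%) and 2 lower (1.1%, beside 2.28%). CI01000027_09844761_09853770 was higher by 1.22 (SE 0.20, adjusted p = 0.094) and newGene_8898 by 2.19 (SE 0.44, adjusted p = 0.21). CI01000012_11068977_11070913 (rank 46) was lower, with 4.48, 2.53 and 3.16 FPKM at 3‰ and 1.33, 2.05 and 1.73 at 6‰. This difference of -0.68 (SE 0.24, adjusted p = 0.44) did not pass without replicate 1 of either asymptomatic group. CI01158834_00000176_00000779 was lower by -1.52 (SE 0.61, adjusted p = 0.51), and 3 of the fish, left out singly, ended that call. Without the 6‰-treated asymptomatic replicate 1 the count was 6 (3.3%, beside 4.03% of all ids) in place of 14.

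In symptomatic fish 5 members passed, 2.75% beside 2.43% of all ids, with 4 higher at 6‰ (2.20%, beside 1.39%) and 1 lower (0.549%, beside 1.03%). Those higher at 6‰ were led by CI01000197_00019798_00024212 (rank 30), with 26.98, 34.8 and 27.3 FPKM at 3‰ and 34.2, 63.4 and 62.9 at 6‰ (0.78, SE 0.28, adjusted p = 0.93), and CI01000030_01091944_01093682 (rank 14), with 62.5, 50.5 and 61.4 against 62.9, 166 and 167 (1.05, SE 0.38, adjusted p = 0.93). In both the 6‰-treated replicate 1 lay close to the 3‰-treated fish, and neither passed without replicate 2 or without replicate 3 of the 6‰-treated symptomatic fish. The 1 lower member, CI01158834_00000176_00000779 (-1.37, SE 0.61, adjusted p = 0.93), did not pass without the 6‰ symptomatic replicate 3.

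The 6‰-treated and 3‰-treated symptomatic replicates 1 were the most alike among the 105 pairs that 15 fish allow. Their absolute log2 difference had a median of 0.14, and the next pair had 0.18. They carry different salinity labels. The 6‰-treated one was also nearer to the 3‰-treated asymptomatic replicate 1 (0.19) than to the other fish of its own group (0.26 and 0.53). Without the 6‰-treated one of the pair, 21 members passed between the salinities in symptomatic fish in place of 5 (11.5%, beside 8.82% of all ids). Without only the 3‰-treated one the count stayed at 5 (2.75%, beside 2.82%), and without both it was 16 (8.79%, beside 6.11%). Without both, 17 passed in the comparison over all treated fish (9.34%, beside 5.44%), of which 10 were among the 11. Whether the libraries of the most alike pair come from separate fish was not tested beyond these values.

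Symptomatic against asymptomatic fish, averaged over both salinities, gave 10 members past the threshold, 5.49% beside 4.48% of all tested ids. Of these 5 were higher in symptomatic fish (2.75%, beside 1.91%) and 5 were lower (2.75%, beside 2.57%). The shares of the members were near those of all ids.

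CI01000029_07503905_07506541 (rank 63) had the lowest p among the members higher in symptomatic fish. Its FPKM was 0.428, 0.293 and 0.281 in con, 0.864, 0.630 and 0.885 in the 3‰ asymptomatic group, 2.54, 2.34 and 1.62 in the 3‰ symptomatic group, 0.742, 0.796 and 0.893 in the 6‰ asymptomatic group, and 2.35, 1.54 and 0.683 in the 6‰ symptomatic group. The 6‰ symptomatic replicate 3 lay among the asymptomatic fish, and the other 5 symptomatic fish were above all of them. The difference was 0.62 (SE 0.15, adjusted p = 0.078). On the log2(FPKM + 1) scale it was under 1.5-fold without either of the most alike fish and without both (0.46). The added 1 understates the FPKM fold of an id this low. The neighbouring CI01000001_11798501_11800359, listed above with its pair, was higher in symptomatic fish by 0.60 (SE 0.17, adjusted p = 0.11). It lost the call when any of 5 fish was left out.

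CI01000033_01103460_01104059 (rank 19) was lower in symptomatic fish. Its FPKM was 0.945, 1.54 and 1.81 in con, 4.06, 5.57 and 4.57 in the 3‰ asymptomatic group, 3.50, 2.87 and 2.12 in the 3‰ symptomatic group, 7.93, 8.11 and 5.64 in the 6‰ asymptomatic group, and 2.60, 4.28 and 3.86 in the 6‰ symptomatic group. The groups with and without symptoms did not overlap within either salinity. The difference was -0.72 (SE 0.15, adjusted p = 0.059), the lowest adjusted p of any member in the 7 comparisons, and it passed the unadjusted threshold without any single fish. CI01000018_06530603_06532567 (rank 18) was lower by -0.69 (SE 0.20, adjusted p = 0.12), with 14.6, 28.8 and 15.3 FPKM in 3‰-treated asymptomatic, 14.04, 12.2 and 11.9 in 3‰-treated symptomatic, 46.1, 34.9 and 26.1 in 6‰-treated asymptomatic and 16.0, 16.1 and 26.1 in the 6‰ symptomatic group. It fell under 1.5-fold without the 3‰-treated asymptomatic replicate 2.

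Within 3‰-treated fish 7 members passed between fish with and without symptoms, 3.85% beside 5.04% of all ids, with 2 higher (1.1%, beside 2.27%) and 5 lower (2.75%, beside 2.77%). CI01000029_07503905_07506541 was higher with symptoms by 0.81 (SE 0.21, adjusted p = 0.20). CI01000030_10134835_10135293 (rank 37) was higher by 0.90 (SE 0.35, adjusted p = 0.34), with 4.70, 1.77 and 2.13 FPKM without symptoms and 6.75, 3.26 and 8.76 with them, and any of 4 fish ended its call. Lower with symptoms were CI01000046_01970499_01979300 (rank 93), at 6.23, 4.26 and 4.43 against 3.05, 2.84 and 2.77, by -0.61 (SE 0.15, adjusted p = 0.20), and CI01000012_00863269_00864644 (rank 78), at 124, 132 and 80.9 against 66.5, 63.2 and 65.9, by -0.74 (SE 0.23, adjusted p = 0.25). The first of these fell under 1.5-fold after either scaling, and without the 3‰-treated asymptomatic replicate 1 or the symptomatic replicate 3. The other did so under none of the settings with the unadjusted p. In both, the 3‰-treated symptomatic fish were below all other treated fish, as in 7 members (3.85%, beside 1.1% of eligible ids).

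Within 6‰-treated fish 10 members passed, 5.49% beside 5.51% of all ids, with 3 higher (1.65%, beside 2.28%) and 7 lower (3.85%, beside 3.23%). newGene_8898 was lower in symptomatic fish by -1.84 (SE 0.44, adjusted p = 0.28) and CI01000033_01103460_01104059 by -0.85 (SE 0.21, adjusted p = 0.29). Among the 3 that were higher, CI01000105_01583770_01592018 (rank 67) was at 9.11, 9.02 and 11.2 FPKM without symptoms and 13.9, 21.4 and 14.2 with them (0.68, SE 0.21, adjusted p = 0.35), and it fell under 1.5-fold without the symptomatic replicate 2. CI01000001_11798501_11800359 was higher by 0.72 (SE 0.24, adjusted p = 0.37), a call that ended without replicate 3 of either group.

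The interaction, the salinity difference of symptomatic fish minus that of asymptomatic fish, passed the threshold in 9 members, 4.95% beside 3.00% of all ids, with 7 negative (3.85%, beside 1.51%) and 2 positive (1.1%, beside 1.49%). The lowest adjusted p of a member in the limma fit was 0.9999. By size the first was the member ranked 1, CI01000376_00183041_00194776, at -2.79 (SE 1.19). By p the negative ones were led by CI01000018_02338151_02342822 (rank 124), at -0.59 (SE 0.20), which fell under 1.5-fold without any of 6 fish, and newGene_8898, at -1.68 (SE 0.62), which lost the call without the most alike pair of fish. The positive ones were CI01000046_01970499_01979300, at 0.67 (SE 0.21), which lost it without the 3‰-treated asymptomatic replicate 1, and CI01000047_03785018_03800982 (rank 88), at 0.76 (SE 0.32), which lost it under 9 settings beside the adjusted p.

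The treated groups that stood apart from all other treated fish were counted without a test. The 6‰-treated asymptomatic fish were above the other 9 treated fish in 9 members, 4.95% beside 2.94% of the eligible ids, and below them in 1 (0.549%, beside 1.35%). The 9 were newGene_8898, newGene_8896, CI01000033_01103460_01104059, CI01000027_09844761_09853770, CI01000197_00019798_00024212 and the members ranked 36, 61, 64 and 105. The 3‰-treated asymptomatic fish stood above the other treated fish in 2 members (1.1%, beside 1.48%) and below them in 2 (beside 0.992%), and the 3‰-treated symptomatic fish stood above them in 1 (0.549%, beside 1.54%) and below them in 7 (3.85%, beside 1.1%). The 6‰-treated symptomatic fish stood above them in 0 members and below them in 0, beside 0.224% and 0.143% of eligible ids. All 6 symptomatic fish were above all 6 asymptomatic fish in 2 members (1.1%, beside 0.854%), one of them newGene_48, and below them in 1 (0.549%, beside 1.95%).

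Whole gill RNA holds many cell types, and more cells of a type cannot be told apart from more RNA per cell. From the ids that the study pairs with names, 27 were chosen here as markers. They stand for B cells, T and cytotoxic cells, mast cells and macrophages, with the claudins for the epithelium. The B cell ids are named IgM heavy chain, membrane-bound IgZ, IGKC and CD40. All 27 come from figures of genes that differed with salinity, so they are no neutral sample of markers. The treated mean was above the control mean in 2 of 5 B cell ids and 2 of 6 T and cytotoxic cell ids. It was so in 2 of 5 mast cell ids, 1 of 2 macrophage ids and 7 of 9 claudins, 14 of the 27. The sums below thus mix ids of both directions. Of the 27, 0 were higher in every treated fish, beside 0.911% of the eligible ids, and 0 were at 0 in all fish. Beside so low a share, a count of 0 among 27 says little about these cell types. The summed FPKM of the 5 B cell markers was 246 to 698 in the control fish and 212 to 1485 in the treated fish. The 2 macrophage markers summed to 10.8 to 28.7 in the control fish and 10.9 to 44.6 in the treated fish. For the 6 T and cytotoxic cell markers it was 114 to 277 in the control fish and 58.8 to 228 in the treated fish. The 5 mast cell proteases summed to 111 to 162 in the control fish, 125 to 147 in the 3‰ asymptomatic group, 189 to 218 in the 3‰ symptomatic group, 29.2 to 53.6 in the 6‰ asymptomatic group and 46.6 to 172.5 in the 6‰ symptomatic group. The 9 claudins, which form tight junctions, summed to 678 to 807 in the control fish and 944 to 1358 in the 6‰ asymptomatic group, with 640 to 884 in the 3‰ asymptomatic group, 668 to 768 in the 3‰ symptomatic group and 617.9 to 940 in the 6‰ symptomatic group. For both lists the 6‰ asymptomatic group lay outside the control range, and so did the 3‰ symptomatic group for the proteases. The ranges of the other treated groups overlapped that of the controls. The claudins had been picked by the study in these same uninfected fish, as genes lower at the lower salinity. Their higher sum in the 6‰ asymptomatic group can follow in part from that choice. It is therefore no separate readout of the epithelium. Among the treated groups, the 6‰ asymptomatic group had the highest mean of the members ranked 1, 3, 4 and 5 and the lowest of the member ranked 2. Over all 182 members it had the highest mean in 46 and the lowest in 53. The part of these cell types in the members' values was not tested.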

How the data were processed

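Gill RNA of 15 fish was sequenced, and the FPKM values deposited by the authors came as a separate file for each fish. No aligner, counting tool or genome build is named in the labels or the paper. The labels name a NEBNext kit and the paper a TruSeq kit with a Trinity assembly. One line per file held annotation text and was left out. FPKM keeps no read counts, so the depth behind a value is unknown and no interval for counting error is given.

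The 7 comparisons used limma 3.58.1 in R 4.3.3 on log2(FPKM + 1), with 5 groups in 1 model (10 residual degrees of freedom, 2.64 from the prior). The threshold follows the study's fold and p, which its text does not call adjusted. The comparison between the salinities was tried on simulated data, drawn separately for each id and fish. The choice of members by the rule was not part of that trial. Members, lists and tests were chosen with earlier results of these data known.

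Named were the 5 members ranked highest, the 3 of highest mean FPKM, those nearest the rule's edge (in place of the limit of 200), those within 20 kb of another member or of an id the study names, and per comparison the 2 of lowest p in each direction past the threshold. Alternatives were the adjusted p, other filters, scalings and a pseudocount of 0.1, only the 12 treated fish, a replicate block, and leaving out each fish. Leaving out the most alike pair was chosen after seeing the data. The study's figures name 302 ids, and the files hold 274 of these. The rest could not be checked, so genes that the figures name under another id may remain among the members.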

Additional observations from a re-analysis of the deposited data

How the results depend on the processing

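With the Benjamini-Hochberg adjusted p the number of members past the threshold was 0 in each of the 7 limma comparisons (11 between the salinities, 10 with symptoms, 9 in the interaction, 7 and 10 with symptoms at 3‰ and 6‰, 14 and 5 between the salinities in asymptomatic and symptomatic fish with the unadjusted p). The rule gave 108 ids after quantile normalization and 114 with a mean FPKM of at least 5. When only the 12 treated fish were fitted, 10 members passed between the salinities (5.49%, beside 3.66% of all tested ids) and 9 with symptoms (4.95%, beside 4.43%). In the interaction 6 passed (3.3%, beside 2.97%). Symptoms gave 6 at 3‰ (3.3%, beside 4.99%) and 10 at 6‰ (5.49%, beside 5.48%). Between the salinities 12 passed in asymptomatic fish (6.59%, beside 5.08%) and 3 in symptomatic fish (1.65%, beside 2.48%). Without the most alike pair of fish 17 passed between the salinities (9.34%, beside 5.44%), 16 between the salinities in symptomatic fish (8.79%, beside 6.11%) and 12 between symptomatic and asymptomatic 3‰-treated fish (6.59%, beside 8.84%). Leaving out 1 fish gave 188 to 692 ids by the rule, 9 to 19 members between the salinities (2.61% to 6.29% of all ids), 6 to 11 with symptoms (3.65% to 6.76%), 4 to 12 in the interaction (2.46% to 5.17%), 6 to 12 with symptoms at 3‰ (4.28% to 7.89%), 8 to 15 with symptoms at 6‰ (3.76% to 11.5%), 6 to 19 between the salinities in asymptomatic fish (4.03% to 7.15%) and 2 to 21 in symptomatic fish (1.55% to 8.82%).

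Whether the replicate numbers shared by the groups pair the fish was not settled by their correlations. These were taken on log2(FPKM + 1) after the group mean of each id was subtracted, so they compare deviations from the group. The median correlation was -0.01 between same-numbered fish of different groups and 0.02 between the others. The most alike pair of fish shared replicate number 1. Same-numbered fish correlated over 0.1 in 10 of 30 pairs, with correlations from -0.47 to 0.54, and 8 of 15 fish correlated best with their own number. With the replicate block 11, 10, 9, 7, 11, 14 and 5 members passed in the 7 comparisons, of which 11, 10, 8, 6, 10, 13 and 4 were the same ids as without it. Of all tested ids 3.62%, 4.42%, 2.9%, 4.95%, 5.49%, 5.17% and 2.36% passed with it.

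For the 27 differences between treated groups with a named member, 564 of 648 values under an alternative stayed past the threshold, 84 did not, and 0 changed direction. With the adjusted p no member passed, so all 27 are among the 84 under that setting. The causes of the other changes were not tested. The 27 were chosen for a low p past the threshold in the same fish, and some ids recur among them. Most alternatives reuse nearly all of the fish, so these counts are no separate support. Values are limited by 3 fish a group and by an unknown depth.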
